A study of Rattus norvegicus with 36 samples.

Results

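The genes described here are 6 genes known from Schwann cells and peripheral myelin, Mbp, Pllp, Scn7a, Pmp22, S100b and Cdh19, followed through the rat mammary gland after a carcinogen. They were taken by name, as every probe set of the deposited table whose gene symbol in the platform annotation is one of the 6. Of 31099 probe sets, 8 met this rule: 3 for Mbp, 2 for Pmp22 and 1 each for Pllp, Scn7a and S100b. They stand for 5 of the 14218 gene symbols of the annotation. No probe set carried Cdh19, a cadherin of Schwann cell precursors, and it was not analysed here. All 8 probe sets passed the filter on dim signals, so each of the 5 measured genes could be tested.

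Each array measured RNA of a whole mammary gland from rats 55 days old at treatment, of the strain F344, which is susceptible to mammary cancer, or Cop, which is resistant. Rats received N-nitrosomethylurea (NMU), an alkylating carcinogen, or saline, and their glands were taken after 6 h, 1 d or 30 d. The 2 strains, 2 treatments and 3 times give 12 groups of 3 Affymetrix arrays, 36 in all. In each strain the NMU groups are set against saline controls of the same time, and no group carries a transgene or a deletion. The labels call the replicates biological without saying that each is a separate animal, so the p-values measure only the spread between arrays. The 30 d glands are also older than the others by the length of the experiment.

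Schwann cells wrap the axons of peripheral nerves, and nerves enter the mammary gland with the blood vessels and reach the nipple and the fat pad. Myelinating Schwann cells stack their membrane into a sheath, which Mbp (myelin basic protein) seals on its cytoplasmic face and in which Pmp22 (peripheral myelin protein) and Pllp (plasmolipin) are membrane-spanning proteins. Scn7a is an atypical sodium channel found in non-myelinating Schwann cells and some neurons. S100b is a calcium-binding protein used as a general Schwann cell marker. None of these genes is private to Schwann cells: S100b is also abundant in adipocytes, Pmp22 in fibroblasts and epithelia, and the Mbp locus has a distant upstream start whose golli transcripts are made in lymphoid cells. In Schwann cells the transcription factors Sox10 and Egr2 act on myelin genes.

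The 250 bases before the RefSeq start of the 4 genes that rose together at 30 d are shown because Sox10 and Egr2 bind near genes of this kind. They come from the RefSeq promoter table of build GRCr8, are written along the gene's own strand, and carry in capitals each match to the Sox core ACAAAG or ACAATG or to the Egr site GCGNGGGCG, searched on both strands. For Mbp the inner of its 2 listed starts is shown.

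Mbp, chr18:78209995-78210244, plus strand: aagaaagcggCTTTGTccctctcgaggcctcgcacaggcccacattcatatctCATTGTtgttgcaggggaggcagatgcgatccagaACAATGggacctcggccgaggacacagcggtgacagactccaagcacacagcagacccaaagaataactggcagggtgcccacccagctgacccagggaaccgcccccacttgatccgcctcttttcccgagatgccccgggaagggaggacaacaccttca

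Scn7a, chr3:71846285-71846534, minus strand: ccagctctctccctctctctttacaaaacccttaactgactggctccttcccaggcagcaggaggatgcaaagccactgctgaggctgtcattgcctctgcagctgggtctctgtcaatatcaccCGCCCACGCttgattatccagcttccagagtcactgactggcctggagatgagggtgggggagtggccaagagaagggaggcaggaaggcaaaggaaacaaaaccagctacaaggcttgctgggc

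Pllp, chr19:10320830-10321079, plus strand: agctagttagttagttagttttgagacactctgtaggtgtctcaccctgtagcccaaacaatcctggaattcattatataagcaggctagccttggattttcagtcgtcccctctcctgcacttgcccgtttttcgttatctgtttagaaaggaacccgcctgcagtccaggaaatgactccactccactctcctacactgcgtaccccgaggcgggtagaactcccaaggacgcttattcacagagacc

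Pmp22, chr10:48294682-48294931, plus strand: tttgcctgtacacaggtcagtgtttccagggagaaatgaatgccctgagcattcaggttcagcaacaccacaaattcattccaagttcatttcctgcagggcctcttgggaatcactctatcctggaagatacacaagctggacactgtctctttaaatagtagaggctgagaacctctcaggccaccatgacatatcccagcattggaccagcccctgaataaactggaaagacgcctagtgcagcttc

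The Mbp window held 3 Sox cores, beginning at -240, -197 and -162 from the start. The Scn7a window held 1 Egr site, beginning at -125, and the Pllp and Pmp22 windows held neither motif. None of these motifs lay in the windows of the outer Mbp start, S100b or Cdh19. Among 33469 RefSeq windows reaching from 250 bases before a start to 50 after it, 29.1% hold a Sox core and 4.98% an Egr site, so these matches are a description of the letters only.

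All values are deposited log2 values, and a difference of 1 is a doubling of the array signal. Tests came from 1 limma model over all 36 arrays, with Benjamini-Hochberg adjustment over the 20749 probe sets tested in each comparison, and a probe set counts as called at an adjusted p under 0.05. Where a gene has several probe sets, counts of genes use the brightest one. Where arrays are said not to overlap, the share of all probe sets that separate in this way was not counted. Such statements describe the values and are not tests. Values from the whole gland cannot tell fewer cells of a type from less RNA per cell.

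**Figure D1:**
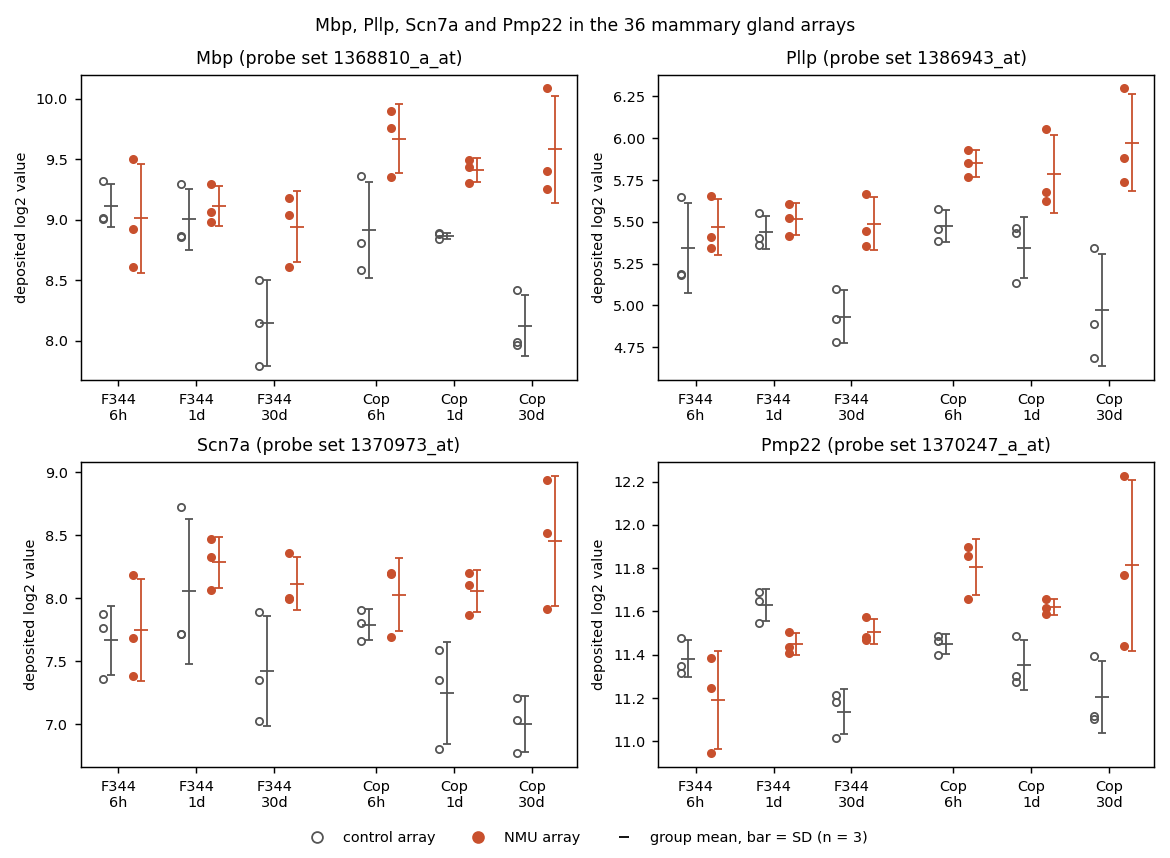
Deposited log2 values of Mbp, Pllp, Scn7a and Pmp22 (vertical axes, the brightest probe set of each gene) in the 12 groups of strain, time and treatment (horizontal axis). Points are single arrays, ticks are group means and bars are SDs (n = 3 each). At 30 d the NMU arrays of Mbp, Pllp, Scn7a and Pmp22 lie above the controls of their strain, and in Cop Mbp reads 9.25 to 10.09 after NMU against 7.97 to 8.42.

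At 30 d, NMU-treated Cop glands held more Mbp, Pllp, Scn7a and Pmp22 signal than their saline controls. Of the 5 measured genes 4 rose, 6 of the 8 probe sets, and none fell. Over all probe sets tested, 9.90% were called in this comparison and 4.42% were called higher. The median change of the 5 genes was 1.00, against -0.01 over all probe sets tested. The largest rises, of Mbp and Scn7a, came to 2.75-fold and 2.74-fold.

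Mbp (probe set 1368810_a_at) read 8.42, 7.99 and 7.97 in the Cop controls at 30 d and 9.25, 9.40 and 10.09 after NMU. The lowest NMU array was thus above the highest control. The rise was 1.46 (SE 0.23, limma adjusted p = 0.000558). A second Mbp probe set, 1387341_a_at, read 7.03, 6.15 and 6.79 in controls and 7.85, 7.81 and 8.32 after NMU, a rise of 1.34 (adjusted p = 0.000641) without overlap.

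Pllp, a small tetraspan protein that travels with myelin lipids, read 5.34, 4.89 and 4.69 in controls and 5.88, 5.74 and 6.30 after NMU. It rose by 1.00 (SE 0.16, adjusted p = 0.00067), and its groups did not overlap. Pllp is the dimmest of these probe sets, at a mean 46.4th percentile of its array.

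Scn7a read 7.21, 6.77 and 7.04 in controls and 8.52, 7.91 and 8.94 after NMU, again without overlap. The rise of this channel gene was 1.45 (SE 0.27, adjusted p = 0.00177).

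Pmp22, the integral protein of compact myelin, moved least of the 4. Its brighter probe set read 11.40, 11.12 and 11.10 in controls and 11.44, 11.77 and 12.23 after NMU, a rise of 0.61 (SE 0.12, adjusted p = 0.00376). NMU replicate 1 exceeded control replicate 1 by a margin of hundredths, and without NMU replicate 3 the rise was 0.40 and no longer called (adjusted p = 0.0668). The second Pmp22 probe set rose by the same 0.61 (adjusted p = 0.0209) with overlapping arrays, and its call was lost without any 1 of 4 arrays: control replicate 2 or 3, or NMU replicate 2 or 3.

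S100b did not pass at 30 d in Cop. It read 12.01, 11.17 and 11.68 in controls and 11.33, 12.10 and 12.04 after NMU, a difference of 0.21 (95% interval -0.17 to 0.58, adjusted p = 0.528). The third Mbp probe set, 1383479_at, differed by -0.08 (interval -0.40 to 0.24, adjusted p = 0.804).

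The spread behind these p-values is pooled over the 12 groups. With the 6 compared arrays fitted alone, no probe set of the whole table was called in Cop at 30 d, and the member genes had adjusted p-values from 0.248 for Mbp and Scn7a to 0.352 for Pmp22. The Mbp, Pllp and Scn7a calls held whichever single array was left out of the full model.

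**Figure D2:**
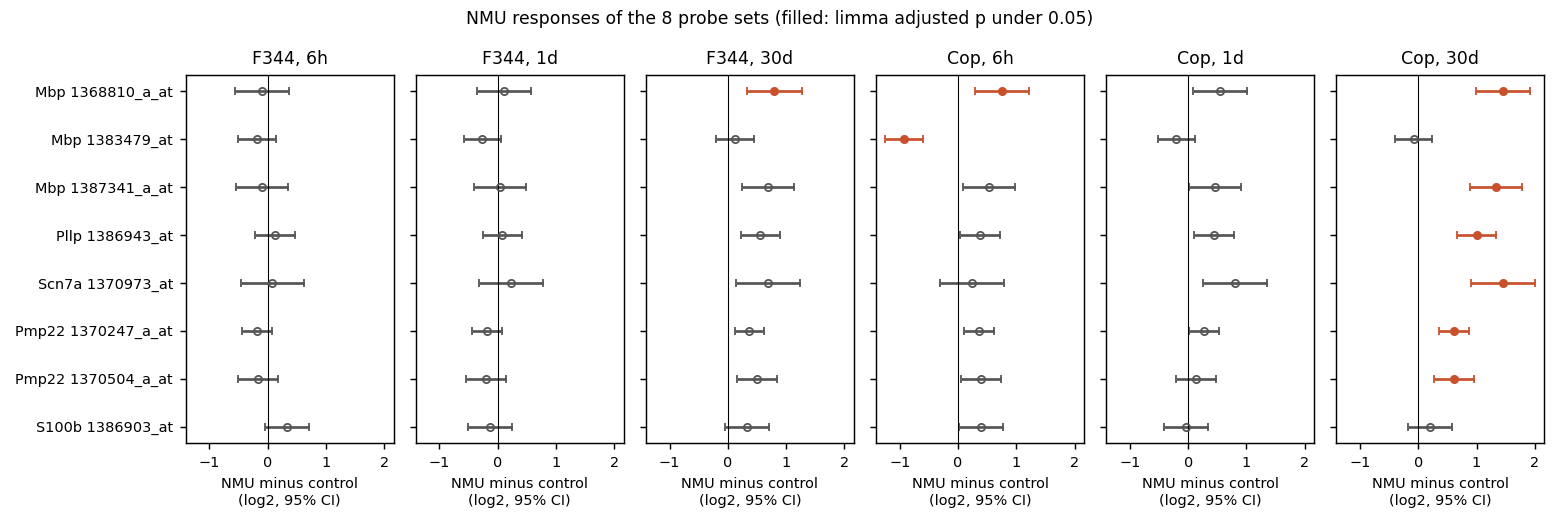
Log2 change, NMU minus control (horizontal axis), of each of the 8 probe sets at 6 h, 1 d and 30 d in F344 and Cop, with bars for the 95% interval of the limma model over 36 arrays and filled points at an adjusted p under 0.05. In Cop at 30 d, 6 of the 8 intervals lie well above 0, led by Mbp at 1.46, while the F344 changes at 6 h and 1 d stay near 0.

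In F344 the same genes were higher after NMU at 30 d by smaller amounts, and 1 of the 5 passed. Over all probe sets 3.29% were called, 0.665% higher. Mbp read 8.14, 8.50 and 7.79 in controls and 9.04, 9.18 and 8.61 after NMU, so the arrays did not overlap, and it rose by 0.80 (SE 0.23, adjusted p = 0.0469). This call was lost without control replicate 1 or 3 or without NMU replicate 1 or 2 (adjusted p between 0.152 and 0.223), with the change between 0.62 and 0.80. It was also lost without the filter (adjusted p = 0.0627), without trend or robust options (0.0519), with the replicate number as a block (0.0564) and with the compared arrays alone (0.121).

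Pllp read 4.92, 5.10 and 4.78 in F344 controls and 5.36, 5.66 and 5.44 after NMU, a difference of 0.56 (adjusted p = 0.055). Scn7a read 7.35, 7.89 and 7.03 in controls and 8.0, 8.36 and 7.99 after NMU, a difference of 0.69 (adjusted p = 0.147). Pmp22 read 11.02, 11.21 and 11.18 in controls and 11.48, 11.57 and 11.47 after NMU, a difference of 0.37 (adjusted p = 0.0938). None of these 3 genes passed. Every NMU array of Pllp, Scn7a and Pmp22 lay above every F344 control of that time, which describes the values only. S100b differed by 0.33 (adjusted p = 0.342), with overlapping arrays.

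Averaged over the strains, NMU raised Mbp at 30 d by 1.13 (SE 0.16, adjusted p = 4.18e-05), Pllp by 0.78 (adjusted p = 5.95e-05), Scn7a by 1.07 (adjusted p = 0.000281) and Pmp22 by 0.49 (adjusted p = 0.000344). In this comparison, which was added after the results within each strain had been seen, 4 of 5 genes rose, and 21.0% of all probe sets were called, 8.15% higher. S100b differed by 0.27 (adjusted p = 0.143), and it was called without Cop control replicate 1 (0.36) or without Cop NMU replicate 1 (0.39).

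The 30 d response was not shown to differ between the strains. Mbp changed by 0.66 more in Cop than in F344 (95% interval 0.00079 to 1.32, adjusted p = 0.999), Scn7a by 0.76 more (interval -0.02 to 1.53) and Pllp by 0.44 more (interval -0.03 to 0.92). limma called none of the 20749 probe sets for this strain difference (0.00%), with 678 of them and 2 of the 8 member probe sets, both of Mbp, at an unadjusted p under 0.05.

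Early after NMU, fewer of the genes were called in Cop than at 30 d, and the 2 times were not tested against each other. At 6 h, where 6.57% of probe sets were called, 3.74% higher and 2.83% lower, 1 of 5 genes rose. Mbp read 8.59, 8.81 and 9.36 in Cop controls and 9.35, 9.90 and 9.76 after NMU, a rise of 0.76 (SE 0.23, adjusted p = 0.0413) with control replicate 3 just above NMU replicate 1. The call was lost without control replicate 1 or 2 or NMU replicate 2 or 3, with the change between 0.59 and 0.71 then. It was also lost without the filter (adjusted p = 0.0541), with the replicate number as a block (0.0505) and with the compared arrays alone (0.0595), a fit that instead called Pmp22 (0.0254). In the full model Pmp22 (0.35, adjusted p = 0.0922), Pllp (0.38, adjusted p = 0.199) and S100b (0.39, adjusted p = 0.237) did not pass. The Cop arrays of these 3 genes did not overlap, which describes the values only. Scn7a differed by 0.24 (adjusted p = 0.717).

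At 1 d in Cop, 0.761% of probe sets were called and no member among them. At an unadjusted p under 0.05 stood 5 of the 8, against 2079 of all 20749. Scn7a read 6.80, 7.36 and 7.59 in controls and 7.87, 8.20 and 8.10 after NMU, a difference of 0.81 (adjusted p = 0.178) without overlap. With the same-numbered arrays paired as a block, it was called at an adjusted p of 0.0453. Mbp differed by 0.54 (adjusted p = 0.354), Pllp by 0.44 (adjusted p = 0.259) and Pmp22 by 0.27 (adjusted p = 0.454), each without overlap, and S100b by -0.03. These separations describe the values only.

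In F344, limma called no member at 6 h, where 0.622% of probe sets were called, or at 1 d, where 0.983% were. None of the 8 probe sets reached an unadjusted p under 0.05 at either time. The 5 genes differed by -0.19 to 0.33 at 6 h and by -0.18 to 0.23 at 1 d. Some F344 arrays separated here too. S100b at 6 h read up to 10.78 in controls and from 10.94 after NMU. At 1 d the brighter Pmp22 probe set was lower after NMU, at most 11.51 against at least 11.55. Mbp probe set 1383479_at was also lower at 1 d, at most 8.80 against at least 8.91. The strain difference in response passed for no member at 6 h (0.877% of probe sets called) or at 1 d (0.207% called). At an unadjusted p under 0.05 stood 4 of the 8 member probe sets at 6 h, against 2269 of all 20749. At 1 d this was 1 of the 8, against 1497 of all. The strain difference at 6 h was 0.86 for the brightest Mbp probe set (adjusted p = 0.277). It was -0.74 for 1383479_at (adjusted p = 0.134, and 0.0420 with the compared arrays alone), and 0.54 and 0.56 for the Pmp22 probe sets (adjusted p = 0.184 and 0.370).

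The 3 Mbp probe sets did not read the gene alike. In Cop at 6 h, probe set 1383479_at read 8.61, 8.43 and 8.66 in controls and 7.76, 7.49 and 7.67 after NMU, without overlap and with the lowest mean of the 12 groups. It fell by 0.92 (SE 0.16, adjusted p = 0.000308), in the comparison in which 1368810_a_at rose. Over the 36 arrays, 1368810_a_at correlated with 1387341_a_at at r = 0.91 and with 1383479_at at r = -0.19, and within groups at 0.77 and -0.40. These correlations describe arrays that share groups and normalization. Which Mbp transcripts each probe set reads is not given in the tables used here.

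In that comparison 7 of 15 tested markers of T and NK cells also fell, with a list median of -1.57, while 0 of 8 B cell markers passed at a median of -0.89. Of all probe sets, 3.74% were called higher there and 2.83% lower. A list score is the mean deviation of a list's genes from their own means over all arrays. The T and NK cell score lay between 0.42 and 0.83 in the Cop controls at 6 h and between -1.17 and -0.07 after NMU. Probe set 1383479_at followed this score at r = 0.47 over the 36 arrays and 0.62 within groups, whereas 1368810_a_at stood at -0.58 and -0.27. Other lists moved there too: 15 of 18 fibroblast and matrix genes rose (median 1.00) and 5 of 17 adipocyte genes fell (median -0.22). Over the arrays 1383479_at stood at r = 0.68 with the adipocyte score, -0.59 with the fibroblast and matrix score and -0.73 with the Schwann cell marker score (0.16, -0.31 and -0.57 within groups). The part of these cell types in the opposed readings was not tested.

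**Figure D3:**
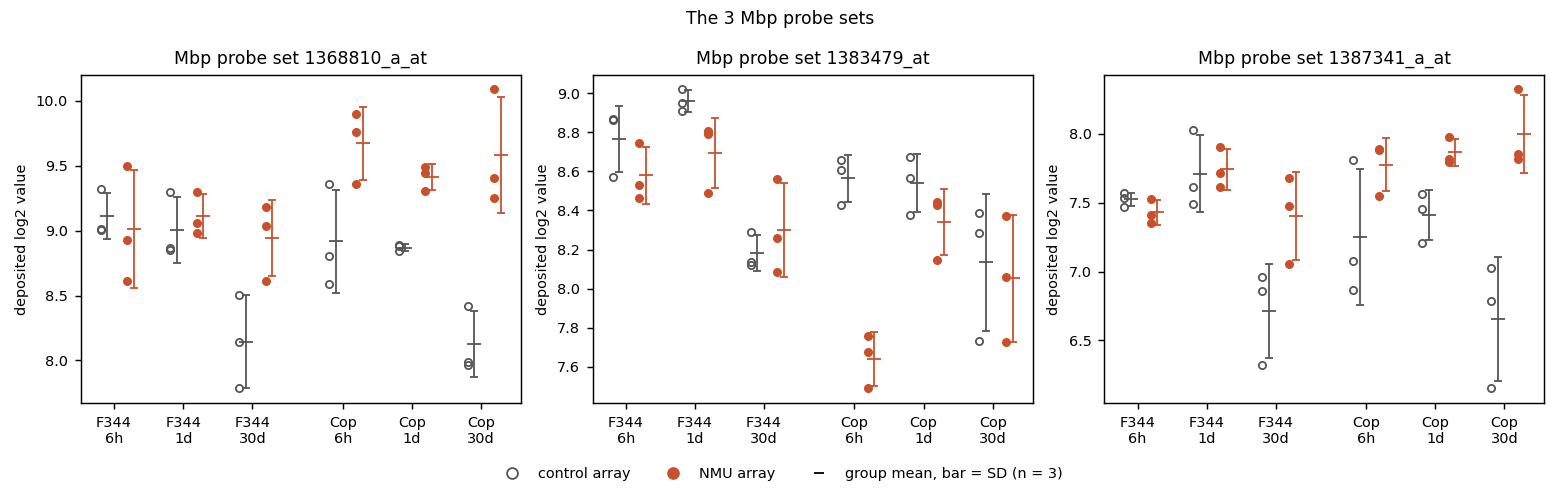
Deposited log2 values of the 3 Mbp probe sets (1 panel each, separate vertical scales) by strain and time (horizontal axis). Open points are control arrays, filled points NMU arrays, ticks and bars group means and SDs (n = 3). Probe set 1383479_at drops to between 7.49 and 7.76 in NMU-treated Cop glands at 6 h, where 1368810_a_at reads between 9.35 and 9.90.

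In control glands, Mbp was lower at 30 d than at 6 h and 1 d in both strains. In F344 it averaged 9.11 ± 0.18 at 6 h, 9.0 ± 0.25 at 1 d and 8.14 ± 0.36 at 30 d (SD, n = 3 each), a fall of 0.92 against the earlier times (SE 0.20, adjusted p = 0.000761). In Cop it averaged 8.92 ± 0.40, 8.87 ± 0.03 and 8.12 ± 0.25, and it fell by 0.77 (SE 0.20, adjusted p = 0.0148). All 3 controls at 30 d lay below all 6 earlier controls in each strain. The Cop call was lost without Cop 30 d control replicate 2 (-0.70, adjusted p = 0.110) or replicate 3 (-0.69, adjusted p = 0.0646).

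Of the 5 genes, F344 controls showed 3 falling and 1 rising at 30 d, with 27.1% of all probe sets called, 13.8% higher and 13.3% lower. Besides Mbp, Pllp fell by 0.46 (adjusted p = 0.016) and Pmp22 by 0.37 (adjusted p = 0.0106), and each lost its call without 30 d control replicate 1, Pllp also without replicate 3. Scn7a differed by -0.44 (adjusted p = 0.173). Probe set 1383479_at fell here too, by 0.68 (adjusted p = 0.000352), so all 3 Mbp probe sets moved one way in this comparison.

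In Cop controls, where 7.50% of probe sets were called, 1.84% higher and 5.67% lower, Mbp alone fell and S100b rose. Pllp differed by -0.44 (adjusted p = 0.0561), Scn7a by -0.52 (adjusted p = 0.169) and Pmp22 by -0.20 (adjusted p = 0.265). Pllp passed without 30 d control replicate 1 (-0.62, adjusted p = 0.0115) or without 1 d control replicate 3 (-0.49, adjusted p = 0.0380). No member differed between the strains in this time effect, with 5.08% of probe sets called. S100b alone of the 8 stood at an unadjusted p under 0.05 (0.48, adjusted p = 0.232), as did 4125 of all 20749.

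Among NMU glands, limma called no member lower at 30 d. Against 6 h and 1 d, Mbp at 30 d differed by -0.12 in F344 (95% interval -0.52 to 0.28, adjusted p = 0.663) and by 0.04 in Cop (interval -0.36 to 0.44, adjusted p = 0.893). Mbp probe set 1383479_at differed in F344 by -0.34 (interval -0.62 to -0.06, adjusted p = 0.0580), and it passed without F344 NMU 1 d replicate 2 (adjusted p = 0.0373) or 30 d replicate 3 (0.0214). Pllp differed by -0.01 and 0.15, Scn7a by 0.10 and 0.41 and Pmp22 by 0.19 and 0.10. S100b alone of the 5 genes was called among NMU glands, in both strains, and 32.3% of probe sets were called in F344 (12.3% higher) and 32.0% in Cop (11.6% higher). These NMU comparisons were added after the control result had been seen, and the change with time was not tested between NMU and control glands. The 30 d controls enter both the fall with time and the NMU rise at 30 d, so these values share samples.

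The order of group means puts the 30 d controls at the bottom for Mbp and Pllp. For Mbp the 3 highest of 12 means were the Cop NMU groups, at 9.67 ± 0.28 at 6 h, 9.58 ± 0.44 at 30 d and 9.41 ± 0.10 at 1 d, which overlap within their spread. Next came 7 groups between 8.87 and 9.11, also within their spread, and then the 30 d controls, F344 at 8.14 and Cop at 8.12. Pllp had the same 3 Cop NMU groups on top, between 5.79 and 5.97, 7 groups between 5.34 and 5.52, and the 30 d controls of Cop at 4.97 and F344 at 4.93. Scn7a ran without such steps, from 7.0 ± 0.22 in Cop controls at 30 d to 8.46 ± 0.52 in NMU-treated Cop glands of that time. Pmp22 spanned only 0.68 between its group means, from 11.14 ± 0.11 in F344 controls at 30 d to 11.81 ± 0.40 in NMU-treated Cop glands at 30 d.

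Averaged over the 3 times, Cop and F344 controls differed in 1 of the 5 genes, S100b, with 26.1% of probe sets called, 12.9% lower in Cop. The strains' S100b control means were furthest apart at 1 d, at 9.92 in Cop against 11.64 in F344. Mbp differed by -0.12 (95% interval -0.39 to 0.15), Pllp by 0.03 (interval -0.17 to 0.22) and Pmp22 by -0.05 (interval -0.19 to 0.10), and Scn7a by -0.37 (adjusted p = 0.0805). Among NMU glands, where 22.8% were called, 11.0% higher and 11.8% lower in Cop, Cop was higher for Mbp by 0.53 (SE 0.13, adjusted p = 0.00329), for Pllp by 0.38 (SE 0.10, adjusted p = 0.00387) and for Pmp22 by 0.36 (SE 0.07, adjusted p = 0.000367). The second Pmp22 probe set differed by 0.18 (adjusted p = 0.187). Mbp probe set 1383479_at was lower in Cop (-0.51, adjusted p = 9.08e-05), opposite to the brightest Mbp probe set. Scn7a differed by 0.13 (adjusted p = 0.600).

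S100b followed a course of its own. In Cop it fell to its lowest levels at 1 d and was high again at 30 d, while in F344 it was already higher at 1 d than at 6 h. Cop controls read 11.16, 10.91 and 11.36 at 6 h, 9.96, 9.81 and 9.99 at 1 d, and 12.01, 11.17 and 11.68 at 30 d. F344 controls read 10.70, 10.78 and 10.78 at 6 h, 11.72, 11.70 and 11.50 at 1 d, and 11.81, 11.70 and 11.92 at 30 d. All 6 Cop arrays at 1 d lay below all 30 other arrays.

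Among NMU arrays too, Cop was lowest at 1 d. In Cop they read 11.41, 11.54 and 11.66 at 6 h and 10.00, 9.70 and 9.96 at 1 d, and in F344 11.14, 10.94 and 11.18 at 6 h and 11.46, 11.22 and 11.86 at 1 d. The F344 means went from 10.75 to 11.64 in controls and from 11.09 to 11.51 in NMU glands, and this difference in course was not tested. NMU against control passed for S100b at no time in either strain. The Cop arrays at 1 d of both treatments thus stand together, apart from F344 at 1 d.

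The change from 6 h to 1 d, Cop minus F344, was -2.10 among controls (SE 0.26, adjusted p = 0.000129) and -2.07 among NMU glands (SE 0.26, adjusted p = 1.37e-05). These comparisons were added after the S100b levels had been seen. Among controls 0.0337% of probe sets were called, 7 in all, and S100b had the smallest p, followed by Adgrv1 (-2.07), Gabarapl1 (-1.20) and Inmt (-2.95). Among NMU glands 2.21% were called, 1.61% lower. Averaged over the strains, the controls showed no change in any member from 6 h to 1 d (0.183% of probe sets called, 0 of 8 members at an unadjusted p under 0.05). For S100b, which fell in Cop and was higher in F344, this average was -0.17 (adjusted p = 0.657).

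Against 6 h and 1 d together, S100b rose at 30 d by 0.61 in F344 controls (adjusted p = 0.0042), by 1.09 in Cop controls (adjusted p = 4.49e-05), by 0.84 in F344 NMU glands (adjusted p = 0.000225) and by 1.11 in Cop NMU glands (adjusted p = 2.19e-05). In Cop the earlier mean includes the low 1 d arrays. Cop controls averaged 11.14 at 6 h, 9.92 at 1 d and 11.62 at 30 d, and Cop NMU glands 11.53, 9.89 and 11.83. The Cop arrays of 6 h and 30 d overlapped under both treatments, and 30 d against 6 h alone was not tested. Among controls S100b was the member called higher against the earlier times while Mbp was called lower. Cop minus F344 was -0.51 among controls (adjusted p = 0.000672) and -0.49 among NMU glands (adjusted p = 0.000841). At 6 h alone the Cop means were the higher ones, 11.14 ± 0.22 against 10.75 ± 0.05 in controls. The Cop and F344 control means were 9.92 against 11.64 at 1 d and 11.62 against 11.81 at 30 d. In NMU glands they were 11.53 against 11.09 at 6 h, 9.89 against 11.51 at 1 d and 11.83 against 12.14 at 30 d.

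The gene most like S100b over the 36 arrays was Sncg, the gamma member of the synucleins, which peripheral neurons and white adipocytes make (r = 0.94, and 0.80 within groups). Sncg averaged 12.47 ± 0.07 in Cop controls at 6 h, 10.76 ± 0.12 at 1 d and 12.66 ± 0.29 at 30 d. It was 1 of the 7 probe sets called for the strain difference among controls (-2.10, adjusted p = 0.0157). Next in likeness came Dpt, a matrix protein (r = 0.85), Cd151, a tetraspanin (0.84), Mxra8 (0.83) and Deptor, an inhibitor of mTOR signalling (0.83).

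S100b did not follow the other members: its r over the arrays was -0.15 with Mbp, -0.10 with Pllp, 0.20 with Scn7a and 0.13 with Pmp22. Within groups it followed the score of 17 adipocyte markers at r = 0.87, yet over all arrays at 0.07. The adipocyte score averaged 0.05 in Cop controls at 6 h and -0.24 at 1 d, and 0 of 17 adipocyte markers were called for the strain difference from 6 h to 1 d among controls, with Adipoq at -0.65 (adjusted p = 0.266). Among NMU glands 1 of 17 was called, higher, and 10 of 18 fibroblast and matrix genes were called lower (median -0.96), against 0 of 18 among controls. Of all probe sets, 0.0337% were called among controls, and 2.21% among NMU glands, 1.61% lower. The part of these cell types in the Cop levels at 1 d was not tested.

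**Figure D4:**
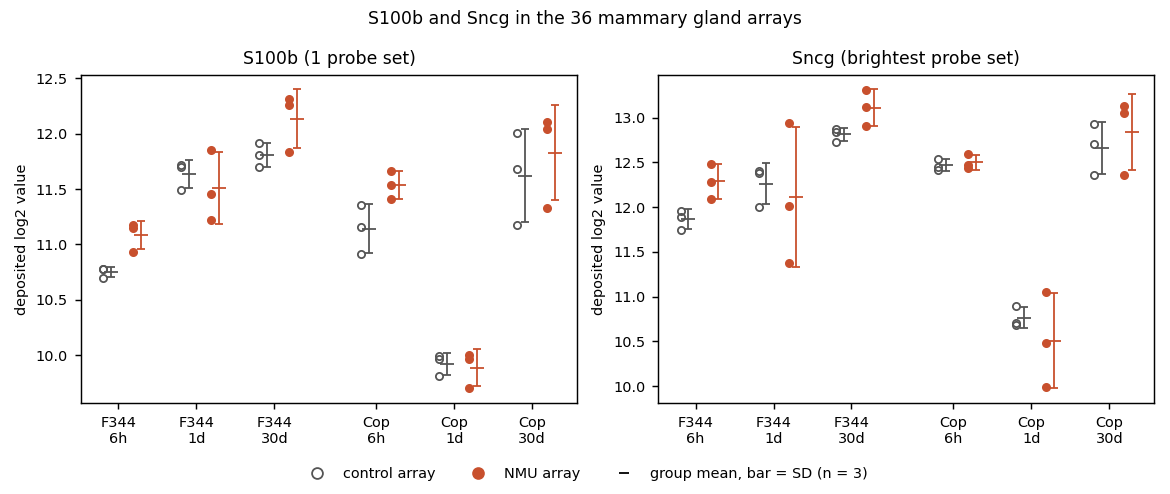
Deposited log2 values of S100b and of Sncg, the gene most like it (vertical axes), by strain and time (horizontal axis). Open points are control arrays, filled points NMU arrays, ticks and bars group means and SDs (n = 3). Both genes are lowest in Cop at 1 d under both treatments, S100b between 9.70 and 10.00.

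Mbp, Pllp and Scn7a moved together over the arrays. Mbp and Pllp correlated at r = 0.90 (0.67 within groups), Mbp and Scn7a at 0.74 (0.68), and Mbp and Pmp22 at 0.76 (0.47). Pllp was the gene most like Mbp among the named genes tested, ahead of Sfrp5, a secreted Wnt inhibitor (r = 0.85), Kank2 (0.81) and Abcc9, a subunit of potassium channels in vascular muscle (0.79). Scn7a was most like Abcc9 (0.77), Mbp (0.76) and Sfrp5 (0.74). Pmp22 was most like Mal, another tetraspan protein of myelin and of epithelia (0.84), Adcy3, an adenylyl cyclase (0.82), and Adam23 (0.82). These are descriptions of 36 arrays that share groups and normalization.

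The label of the group as Schwann cell genes was set against 33 other markers of that lineage, of which 28 had a probe set and 19 passed the filter. Those without a probe set, Gldn and Ncmap among them, were not analysed here. Mag, Pmp2, L1cam, Foxd3, Ugt8, Gal3st1, Cadm4, Gfap and Fabp7 lay under the filter, among them markers of myelinating (Mag, Pmp2) and immature (L1cam, Fabp7) Schwann cells. The lineage factor Sox10, its target receptor Erbb3, Egr2 and the sheath protein Prx were measured.

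In Cop glands 30 d after NMU, 4 of the 19 rose and 1 fell, with a median of 0.25. Over all probe sets, 9.90% were called in this comparison, 4.42% higher. Mal rose by 1.17 (SE 0.21, adjusted p = 0.00136), from 6.68, 6.14 and 6.6 in controls to 7.20, 7.42 and 8.30. Prx (periaxin), which links the myelinating Schwann cell to its matrix, rose by 0.73 (adjusted p = 0.00961), its partner Drp2 by 0.58 (adjusted p = 0.0346) and Dhh, the hedgehog signal that Schwann cells send to the nerve sheath, by 0.67 (adjusted p = 0.0257). Erbb3, the neuregulin receptor of Schwann cells and also of epithelia, fell by 0.46 (adjusted p = 0.0347), and Sox10, which mammary epithelium also makes, differed by -0.77 (adjusted p = 0.0555). Averaged over the strains at 30 d, 5 of the 19 rose and 4 fell, with 21.0% of all probe sets called, 8.15% higher. In that added comparison limma called Sox10 lower (-0.56, adjusted p = 0.0291), Erbb3 lower (-0.35, adjusted p = 0.0133) and Mal higher (0.90, adjusted p = 0.00014).

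In F344 at 30 d, where 0.665% of all probe sets were called higher, 1 of the 19 rose, Art3 by 0.79 (adjusted p = 0.0257). The list median was 0.06. Mal differed by 0.63 (adjusted p = 0.0897), with every NMU array above every control. Egr2, which is also induced in activated lymphocytes, fell in Cop at 1 d by 2.53 (SE 0.52, adjusted p = 0.0149), and no other of the 19 was called at 6 h or 1 d in either strain.

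In F344 controls, markers of this list moved in both directions with time. Sox10 rose there at 30 d by 1.57 (SE 0.22, adjusted p = 5.53e-06), Egr2 by 1.61 (adjusted p = 0.00840) and Erbb3 by 0.73 (SE 0.12, adjusted p = 4.68e-05), while Mbp, Pllp and Pmp22 fell. Matn2 rose there by 0.91, and Aspa, the marker of smallest p, fell by 1.34. Of the 19 markers 7 rose and 2 fell, where 13.8% of all probe sets were called higher and 13.3% lower. The list median was 0.09, against 0.05 over all probe sets tested. In Cop controls 0 rose and 1 fell, Aspa by 0.54 (adjusted p = 0.0335), while Sox10 differed by 0.66 (adjusted p = 0.0689), Erbb3 by 0.21 (adjusted p = 0.298) and Egr2 by -0.59 (adjusted p = 0.439).

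Over the 36 arrays, the score of the 19 markers stood at r = -0.02 with Mbp, 0.15 with Pllp, 0.00074 with Scn7a, 0.30 with Pmp22 and 0.32 with S100b. Within groups these were 0.17, 0.41, 0.0054, 0.37 and -0.06. The members followed the wider marker list weakly or not at all in these correlations, which does not bear out the label of the group, and they are called here by their own names.

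Signals around Schwann cells gave few calls. Of 6 axon and nerve genes, 1 rose in Cop 30 d after NMU, Stmn2, a tubulin-binding protein of growing axons, by 0.91 (adjusted p = 0.0292), and 0 passed in F344. Of all probe sets, 9.90% were called in that Cop comparison and 3.29% in the F344 one. Gap43, a growth cone protein, fell with time in controls of F344 by 1.53 (adjusted p = 0.00174) and of Cop by 1.18 (adjusted p = 0.0389), and Sncg of the same list rose, by 0.75 (adjusted p = 0.0135) and 1.05 (adjusted p = 0.00421). The Cop control means of Sncg were 12.47 at 6 h, 10.76 at 1 d and 12.66 at 30 d. Of 4 perineurial markers, 0 passed in Cop at 30 d and Slc2a1, a glucose transporter, fell in F344 by 0.81 (adjusted p = 0.0150). Of 7 genes of neuregulin and axon-derived signals, Erbb3 fell in Cop and 0 passed in F344.

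Other cell types moved with the 30 d groups. After NMU in Cop, 9.90% of all probe sets were called at that time, 4.42% higher. In NMU-treated Cop glands 10 of 12 endothelial markers rose (median 0.67), as did 9 of 18 fibroblast and matrix genes (0.45), 3 of 17 adipocyte genes (0.34), 2 of 10 smooth muscle and pericyte genes (0.40) and 2 of 13 macrophage genes, with 1 falling. In the same glands 8 of 15 T and NK cell genes (median -1.39), 5 of 8 B cell genes (-1.58), 2 of 17 luminal (-0.79) and 2 of 7 basal epithelial genes (-0.80) fell. The endothelial score ran from -0.12 to 0.23 in Cop controls and from 0.50 to 0.99 after NMU. The luminal score ran from 0.15 to 0.72 and from -1.44 to 0.54, with NMU replicate 3, the array highest in Mbp and Pmp22, at the bottom.

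The T and NK cell score of the Cop NMU arrays was -1.84 and -1.79 in replicates 2 and 3 but 0.57 in replicate 1, within the range of the controls (0.34 to 0.84). Mbp read 9.25 in that replicate and from 7.97 to 8.42 in the controls. In F344 at 30 d, 3 of 12 endothelial markers rose, 1 of 15 T and NK cell genes and 1 of 17 luminal genes fell, and skeletal muscle genes had a median of 3.84 with 0 of 19 called, as the F344 control scores ran from -4.00 to -0.48. Of all probe sets, 3.29% were called in F344 at 30 d, 0.665% higher. Within groups, the endothelial score correlated with Mbp at r = 0.65, with Pllp at 0.56, with Scn7a at 0.69 and with Pmp22 at 0.73. Other lists correlated too: Pmp22 stood at 0.74 with the macrophage, 0.70 with the fibroblast and matrix and -0.72 with the luminal score. The basal epithelial score stood at -0.57 with both Mbp and Pllp, and the macrophage score at 0.42 with Scn7a. The part of these cell types in the rise of Mbp, Pllp, Scn7a and Pmp22 was not tested.

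For the fall with time in F344 controls, 18 of 19 skeletal muscle genes and 11 of 17 adipocyte genes fell, and 15 of 17 luminal and 5 of 7 basal epithelial genes rose. Of all probe sets, 13.8% were called higher there and 13.3% lower. In Cop controls, 1.84% of all probe sets were called higher and 5.67% lower. There 6 of 17 adipocyte genes fell, 6 of 18 fibroblast and matrix genes rose, and 0 of 19 skeletal muscle and 0 of 17 luminal genes passed. The part of the gland's makeup in these values was not tested.

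**Figure D5:**
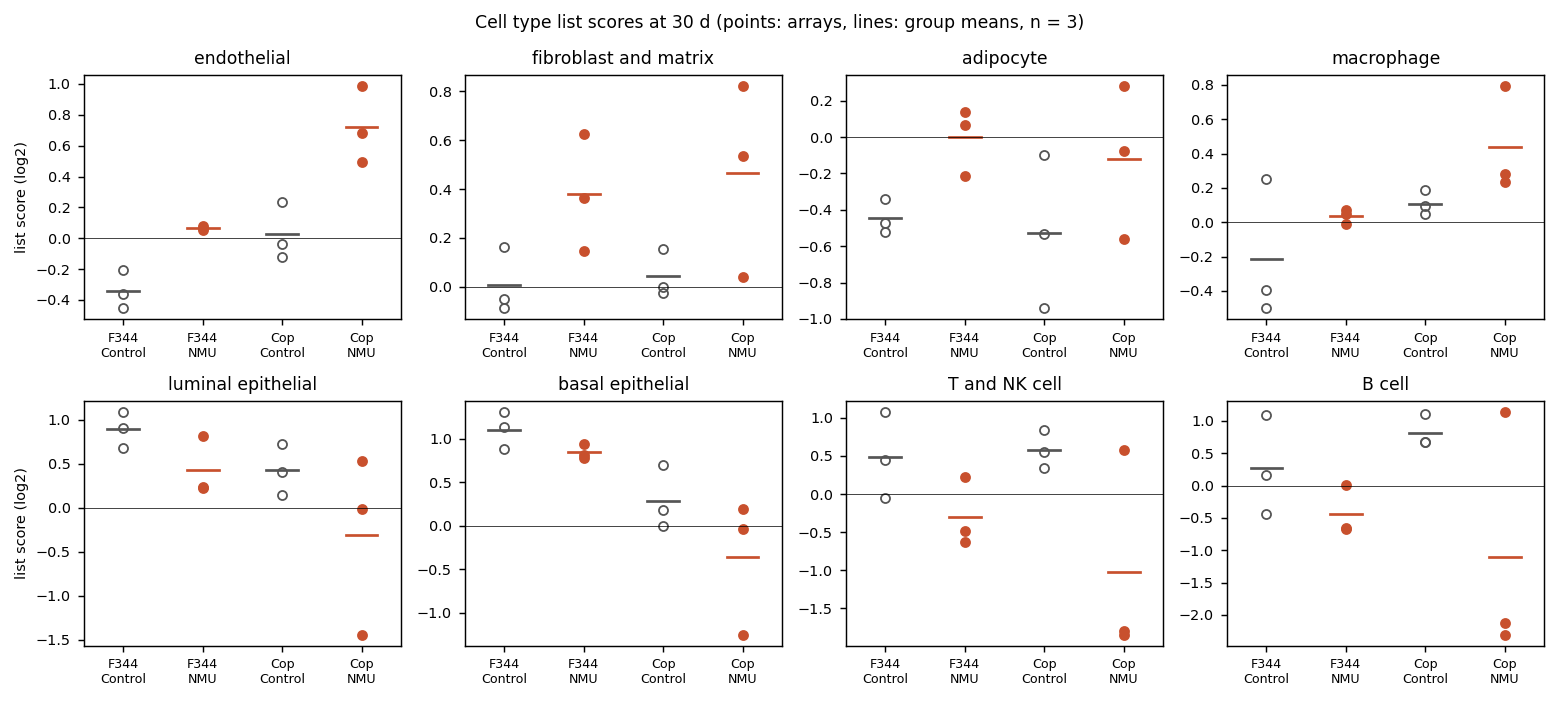
Scores of 8 cell type marker lists (vertical axes, mean log2 deviation of each list's genes from their means over the 36 arrays) in the 4 groups of 30 d (horizontal axis). Points are arrays (open control, filled NMU) and lines are group means (n = 3). The 3 endothelial scores of NMU-treated Cop glands, from 0.50 to 0.99, lie above all others of 30 d.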

How the data were processed

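Per the labels' protocols, RNA of rat mammary glands was purified on Qiagen columns and labelled as biotinylated cRNA for Affymetrix arrays. The deposited table holds the authors' log2 expression values per probe set, with array medians between 5.66 and 5.77. The submitters' processing notes name GCOS, without a version. The method that turned probe signals into these normalized values is not stated there or in the labels. The values were used as deposited. Array number, not read depth, limits the precision. Gene symbols came from the platform annotation: 20832 probe sets have 1 symbol, 436 several and 9831 none.

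Probe sets above the 40th percentile of their own array on at least 3 arrays were tested (20749), without 57 manufacturer's control probe sets. limma 3.58.1 in R 4.3.3 fitted a mean for each of the 12 groups to all 36 arrays, with trend and robust moderation, two-sided tests and Benjamini-Hochberg adjustment within each comparison. The code was tested on simulated data. 15 comparisons were listed at the outset and 5 were added. All member probe sets are reported, and of each list up to 4 genes of smallest p where a comparison held a call, plus the 5 genes of highest Pearson r to each member. Genes named beyond this (Adipoq, and the other called probe sets beside S100b) were chosen after their values were seen. Some values of Sox10, Erbb3, Egr2 and Mal also lie outside this rule, among them Egr2 in F344 controls and those not called. The members and lists were chosen with earlier results of these data known. For 3 Cop control arrays the source label reads FCop, and title and description read Cop, which was followed. F344 1 d control replicates 1 and 2 were the closest replicate pair (root mean square log2 difference 0.237, next pair 0.267) and were kept as separate arrays.

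Replicate numbers come from the labels. Deviations of same-numbered control and NMU arrays correlated over 0.1 for every number only in Cop at 6 h and at 1 d. The Cop values were 0.114, 0.142 and 0.435 at 6 h and 0.202, 0.424 and 0.315 at 1 d. In F344 they were -0.014, 0.350 and 0.507 at 6 h and 0.249, -0.081 and 0.251 at 1 d. In Cop at 6 h, replicate 2 correlated best with replicate 1 of the other treatment. These values do not settle whether the numbers pair the arrays in either strain. A fit with same-numbered arrays as a block was an alternative. Alternatives were no filter or one at the 60th percentile, a floor under values at the 20th, quantile normalization, no trend or robust options, replicate blocks, the compared arrays alone, other probe sets and leaving out each array.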

Additional observations from a re-analysis of the deposited data

Results flagged for a closer look

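S100b is listed because its change from 6 h to 1 d differed between the strains: Cop minus F344 gave -2.10 among controls (limma adjusted p = 0.000129) and -2.07 among NMU glands (adjusted p = 1.37e-05), with the Cop arrays falling and the F344 arrays rising in both treatments. The comparison was chosen after the S100b values had been seen.

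2 markers of the Schwann cell list are listed because their change from the earlier times to 30 d differed between the strains' controls. For Egr2 the Cop change minus the F344 change was -2.20 (adjusted p = 0.0422), and for Aspa, an enzyme that splits N-acetylaspartate, it was 0.80 (adjusted p = 0.0348), with Aspa falling in both strains, by 1.34 in F344 and by 0.54 in Cop.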

How the results depend on the processing

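Values here are numbers of the 5 member genes called. For NMU in F344 at 30 d, 1 gene was called, against 0 without the filter, 0 without trend or robust options, 0 with the replicate number as a block, 2 with each pair of same-numbered arrays as a replicate block, 0 with the compared arrays alone and 0 to 2 when leaving out an array. For NMU in Cop at 6 h, 1 was called, against 0 without the filter, 0 with the replicate number as a block and 0 to 1 when leaving out an array. Fitting only the compared arrays also gave 1 there, Pmp22 in place of Mbp. The replicate block by pair gave 1 for Cop at 1 d, against 0, and it changed no other count in Cop. Cop at 30 d gave 4, 3 to 4 when leaving out an array and 0 with the compared arrays alone. Cop minus F344 in controls gave 1, 2 with quantile normalization and 1 to 2 when leaving out an array. The fall at 30 d was called, with S100b's rise, for 4 genes in F344 controls (2 to 4 when leaving out an array) and 2 in Cop controls (1 to 3), and the Cop NMU glands gave 1 (1 to 2). Reading Mbp by probe set 1383479_at in place of 1368810_a_at reversed it after NMU in Cop at 6 h (-0.92), 1 d (-0.20) and 30 d (-0.082), in the strain difference of the response at 6 h (-0.74) and 30 d (-0.20) and between the strains' NMU glands (-0.51). The cause was not tested beyond the fewer arrays or larger number of probe sets that some settings have by construction. Of 140 other alternative counts that kept every array, all were within 1.5 times the value reported.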
